A study of Homo sapiens with 96 samples.

Results

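The genes described here are 9 members of the bone morphogenetic protein (BMP) pathway: the ligands GDF6 and BMP4, the secreted antagonists NOG and GREM1, the inhibitory SMADs SMAD6 and SMAD7, and the target genes ID1, ID2 and ID3. They were taken by gene symbol, as 9 of the 23641 genes listed in any of 10 expression tables. Of the 9, 8 had a row in all 10 tables, and NOG had none in the nuclear nascent table. The list was selected on measured values of these libraries. The value known to have been used is that of NOG, listed at 0 in both asynchronous whole-cell nascent libraries and well above 0 in the others. Which other values guided the choice is not recorded, so the adjusted p-values below set the size of a difference against the spread between libraries and support nothing beyond that.

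BMP ligands are secreted dimers that bring together type I and type II receptors on the cell surface, which then phosphorylate SMAD1, SMAD5 and SMAD9. These enter the nucleus with SMAD4 and switch on target genes, of which the ID genes are the best known. ID proteins bind basic helix-loop-helix transcription factors and keep them off DNA. SMAD6 and SMAD7 are themselves induced by the pathway and damp it from within the cell, while noggin (NOG) and gremlin (GREM1) bind ligands outside it. In the eye, BMP4 and GDF6 act in the patterning of the retina and of the pigment epithelium.

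RNA was sequenced from hTERT-RPE1 cells, a human line with the origin of retinal pigment epithelium that was made immortal with telomerase. In the first experiment, nascent RNA and input RNA of whole cells or nuclei came from asynchronous cells or from cells in the windows T0-2, T2-4, T4-6, T6-8 and T8-10 of S phase, with 2 libraries per group. Window cells had been held with 400 uM mimosine, which arrests cells before S phase, for 22 h, and asynchronous cells had not, so the drug and the cell cycle cannot be told apart in that comparison. In the second, cells received LNA GapmeRs at 130 to 150 pmol, short antisense strands that lead a matching RNA to be cleaved by RNase H. They were directed against the lincRNAs LINC00704, LUCAT1 or MIAT, or were a control LNA. Synchronised cells gave 2 control and 2 knockdown libraries at each of the points S0, S2, S4 and S6, and asynchronous cells gave 2 control and 3 knockdown libraries. All synchronised cells of this experiment, controls included, had been held with 400 uM mimosine for 22 h, and its asynchronous cells had not. The sources used here do not give the unit of the window and point numbers, nor the GapmeR sequences or their number per target. No label names separate cultures, so each p-value reflects variation among libraries that could be technical.

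Libraries held 6.39 to 50.5 M recovered reads, the shallowest being whole-cell nascent and the deepest an asynchronous MIAT knockdown. Of 10 markers of pigment epithelium, 4 (MITF, OTX2, KRT8 and KRT18) reached 1 RPKM (reads per kilobase of gene after scaling for library depth), and RPE65, which defines the mature tissue, was at most 0.224 RPKM where listed. Of 6 markers of other cell types, HBB alone reached 1 RPKM, at 72.4 in replicate 2 of T0-2 in whole-cell nascent RNA. In synchronised cells, each targeted lincRNA was lower in its knockdown. LINC00704 was at 1.89 to 4.04 RPKM in synchronised controls and 0.55 to 1.61 after its knockdown. LUCAT1 was at 0.44 to 0.994 against 0.133 to 0.379, and MIAT at 0.243 to 0.323 against 0.072 to 0.221. The levels of LINC00704 and MIAT after their own knockdown in asynchronous cells are not given here. Levels of the other targets also differed in asynchronous cells. MIAT was at 0.393 and 0.357 RPKM in controls and at 0.258, 0.0936 and 0.147 after LUCAT1 knockdown. LUCAT1 was at 0.455 and 0.477 RPKM in controls and at 1.07, 0.784 and 0.802 after LINC00704 knockdown, and at 0.452 and 0.478 against 0.670, 0.834 and 0.765 after MIAT knockdown.

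The regulatory sequence of the pathway's own targets is shown because ID1, ID3 and SMAD6 fell together with the ligand GDF6 after MIAT knockdown of asynchronous cells, while ID2 did not pass the test there. SMAD7 also fell there but is not printed, and its matches are given after the sequences. Each line gives the 250 bases upstream of the gene start in RefSeq on GRCh38.p14, read 5′ to 3′ on the gene's strand. The windows are ID1 at chr20:31605039-31605288 on the plus strand, ID2 at chr2:8681806-8682055 on the plus strand, ID3 at chr1:23559502-23559751 on the minus strand and SMAD6 at chr15:66701986-66702235 on the plus strand. Capitals mark matches, on either strand, to GGCGCC or GGAGCC, GC-rich elements bound by SMAD1 and SMAD5, to GTCTAGAC, the palindrome bound by SMAD3 and SMAD4, or to the TATA box TATAAA.
ID1: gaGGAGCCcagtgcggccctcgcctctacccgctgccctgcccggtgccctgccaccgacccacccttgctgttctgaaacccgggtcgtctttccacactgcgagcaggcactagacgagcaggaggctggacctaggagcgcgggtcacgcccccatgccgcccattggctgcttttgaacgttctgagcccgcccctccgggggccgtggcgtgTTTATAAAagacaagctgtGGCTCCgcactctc
ID2: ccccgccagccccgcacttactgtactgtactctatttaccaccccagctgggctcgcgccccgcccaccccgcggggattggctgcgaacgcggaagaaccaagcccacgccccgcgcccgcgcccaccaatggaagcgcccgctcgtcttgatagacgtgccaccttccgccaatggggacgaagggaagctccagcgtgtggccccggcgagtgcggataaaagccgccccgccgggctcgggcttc
ID3: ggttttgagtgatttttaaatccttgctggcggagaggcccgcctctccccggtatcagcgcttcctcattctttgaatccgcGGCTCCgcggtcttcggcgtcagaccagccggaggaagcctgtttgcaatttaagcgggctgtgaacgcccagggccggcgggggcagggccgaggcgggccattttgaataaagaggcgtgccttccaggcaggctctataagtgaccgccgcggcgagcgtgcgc
SMAD6: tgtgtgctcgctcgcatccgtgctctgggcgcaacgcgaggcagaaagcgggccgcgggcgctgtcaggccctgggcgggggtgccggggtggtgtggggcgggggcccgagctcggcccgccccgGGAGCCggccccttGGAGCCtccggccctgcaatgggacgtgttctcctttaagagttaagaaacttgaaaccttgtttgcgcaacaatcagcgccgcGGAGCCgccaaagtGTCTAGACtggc

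The SMAD6 window held GGAGCC 3 times and the palindrome GTCTAGAC 1 time. The ID1 window held GGAGCC 2 times and TATAAA on both strands at overlapping positions, and the ID3 window held GGAGCC 1 time. The ID2 window held no match to any of the 4 motifs. Over 35116 windows of the same length, from 27305 genes, 30.6% held GGAGCC, 16.4% GGCGCC, 10.7% TATAAA and 0.182% (64 windows) GTCTAGAC. The promoter table held entries for 7 of the 9 members, all but NOG and GDF6. Of the members not printed, BMP4 and SMAD7 each held GGAGCC in 1 window, SMAD7 held TATAAA in 1, and GREM1 and BMP4 each held GGCGCC in 1. These matches describe letters and were not tested against the expression values.

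The members' levels spanned a wide range in asynchronous control cells. In the MIAT table, the mean of the 2 controls was 116 RPKM for ID3 (chromosome 1, 23557926 to 23559501 in RefSeq) and 71.4 for ID1 (chromosome 20, 31605289 to 31606510). BMP4 (chromosome 14, 53949736 to 53956891) followed at 8.25, GDF6 (on chromosome 8) at 6.41 and SMAD7 (chromosome 18, 48919853 to 48950965) at 4.8. SMAD6 (chromosome 15, 66702236 to 66782849) was at 1.23, GREM1 (chromosome 15, 32718004 to 32745106) at 0.672, ID2 (chromosome 2, 8682056 to 8684461) at 0.589 and NOG (chromosome 17, 56593699 to 56595611) at 0.453. ID3 (115 and 117) and ID1 (66.2 and 76.7) did not overlap, nor did BMP4, GDF6, SMAD7 and SMAD6 with each other. GREM1 (0.608 and 0.736) overlapped ID2 (0.548 and 0.629), while NOG (0.377 and 0.528) lay below both. The deposited lengths include introns and ran from 1233 bases for ID1 to 80621 for SMAD6, so the order of members by level depends on them. The deposited ID2 length is 5609 bases against a RefSeq span of 2406, so its level per kilobase is not directly comparable with that of the other ID genes. Lengths of BMP4 (9026 against 7156) and ID3 (1877 against 1576) also exceeded the RefSeq span.

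NOG, whose values were used to choose the list, lay apart between asynchronous and S-phase cells in whole-cell nascent RNA. It was listed at 0 in both asynchronous libraries. The windows gave 1.38 and 1.97 RPKM at T0-2, 1.24 and 2.64 at T2-4, 1.58 and 4.58 at T4-6, 1.25 and 1.72 at T6-8, and 0.587 and 1.64 at T8-10. These rest on 26 to 76 reads per library. A count of 0 allows up to 3 reads, or 0.229 and 0.237 RPKM in the 2 asynchronous libraries, counting error only. The window mean of 1.86 ± 1.1 RPKM (SD, n = 10) was therefore at least 7.83-fold higher than that floor per library, and the lowest window library at least 2.47-fold. In bulk RNA, fewer cells with a transcript and less of it per cell cannot be told apart.

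The input RNA of the same asynchronous cells did hold NOG, at 0.864 and 0.973 RPKM (33 and 19 reads). The windows of that table ran from 0.789 to 2.52 RPKM (median 1.64) and overlapped the asynchronous pair. Of the 5908 genes with a window mean of at least 1 RPKM in whole-cell nascent RNA, 12 were at 0 in both asynchronous libraries, and 3 of those (NOG, VTRNA1-3 and AC010654.1) had at least 0.5 RPKM in both asynchronous input libraries. In nuclear input RNA, NOG was at 0.203 and 0.294 RPKM in asynchronous cells (4 and 5 reads) and 0.242 to 0.763 in the windows. The nuclear values are near the limit of the depth.

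Several other members also lay apart between these groups in whole-cell nascent RNA. ID1 was at 39.2 and 47.6 RPKM in asynchronous cells and at 54.5 to 137 in the windows (median 63.7). ID2 was at 0.464 and 0.640 RPKM against 0.974 to 4.77 (median 2.25). BMP4 went the other way, at 3.17 and 2.77 RPKM against 0.935 to 2.63 (median 1.55). SMAD7 (1.86 and 2.88 RPKM against 2.54 to 4.98), ID3 (68.1 and 41.9 against 57.4 to 89.8), GDF6 (3.97 and 3.46 against 3.14 to 5.70) and SMAD6 (0.574 and 0.752 against 0.353 to 0.993) overlapped. GREM1 was under the filter, with all of its values at most 0.354 RPKM. All 10 window libraries thus lay above both asynchronous ones for NOG, ID1 and ID2 and below them for BMP4, where 5.81% of all tested genes lay above and 3.63% below in this way. This contrast was used to choose the list. In limma, 1 of the 8 members tested (NOG) passed an adjusted p of 0.05, where 0.406% of all genes did, and nothing is read from it. The same NOG call was lost in 5 settings, given with the processing checks.

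**Figure D1:**
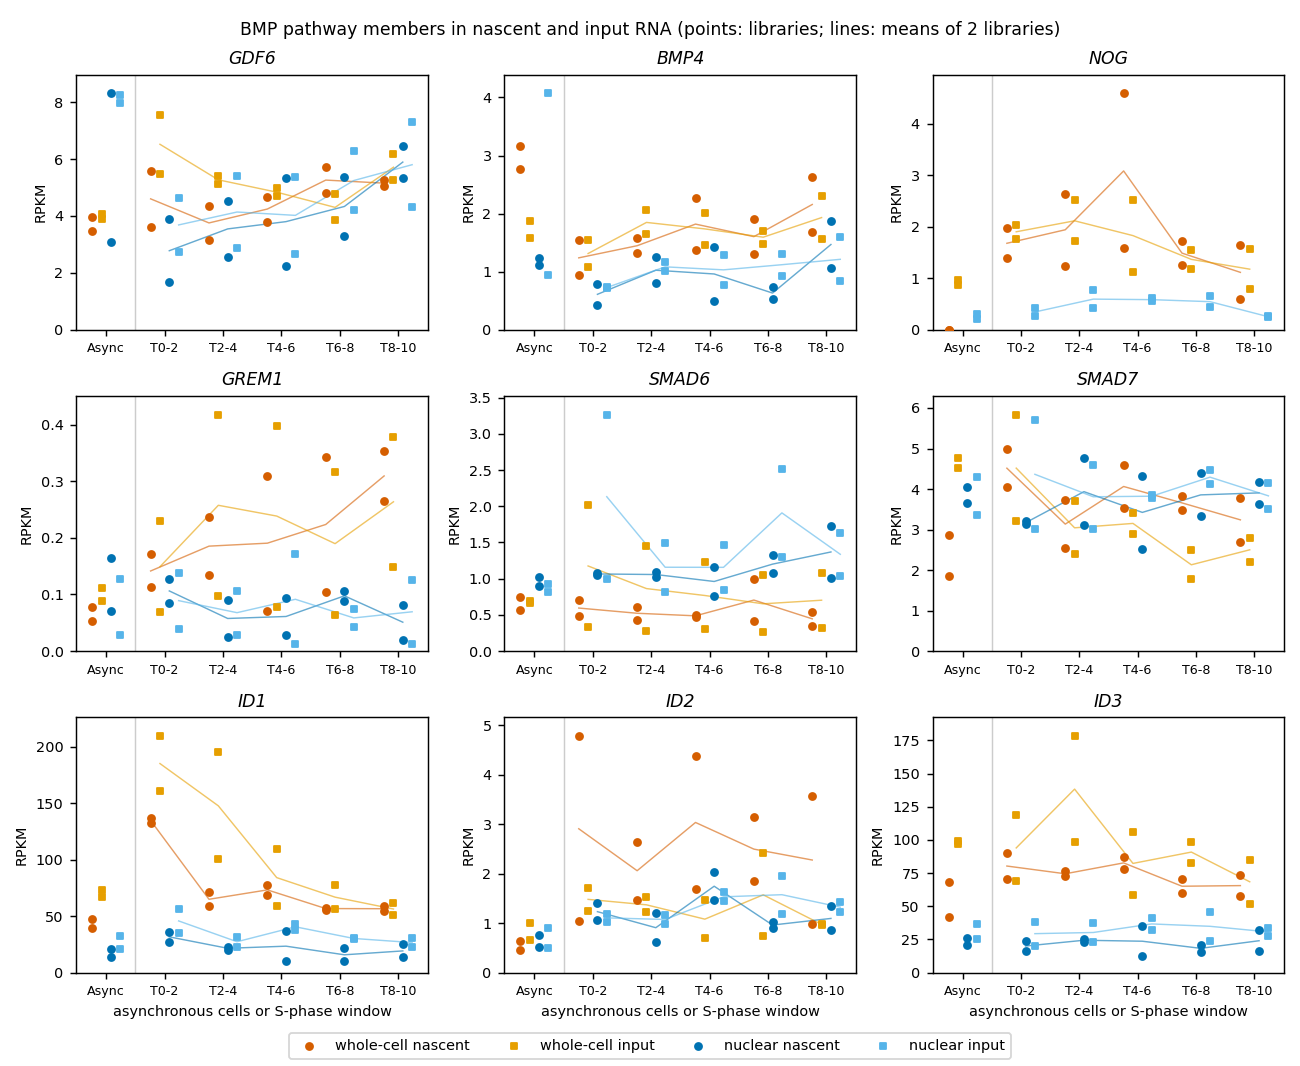
RPKM of each member (vertical axis) in asynchronous cells and the 5 S-phase windows (horizontal axis), with points for single libraries, lines for the means of 2 and colours for whole-cell or nuclear, nascent or input RNA. NOG is at 0 in whole-cell nascent RNA of asynchronous cells, and ID1 in whole-cell nascent RNA is at 137 and 132 RPKM at T0-2 and at 54.5 and 58.6 at T8-10.

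In the other 3 fractions, no member passed the test between windows and asynchronous cells. In whole-cell input RNA, 0 of 8 members passed (0 at an unadjusted p under 0.05), against 0.0305% of all genes, and in nuclear nascent RNA 0 of 7 (1 unadjusted), against 4.5%. In nuclear input RNA it was 0 of 8 (3 unadjusted), against 4.57%. At an unadjusted p under 0.05 in limma there were 865 of 9825 genes in whole-cell input RNA. Nuclear nascent RNA had 1987 of 9784 genes and nuclear input RNA 1844 of 9633. limma voom on recovered reads also called 0 members in each of these 3 tables. The median difference over the tested members was 0.19 on the log2 scale in whole-cell input, −0.09 in nuclear nascent and 0.19 in nuclear input RNA, beside −0.078, −0.012 and 0.004 over all genes.

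In nuclear input RNA the windows lay below asynchronous cells for GDF6 and above them for ID2. GDF6 was at 8.26 and 7.96 RPKM in asynchronous cells and at 2.68 to 7.29 in the windows (median 4.47), with no overlap. ID2 was at 0.907 and 0.496 RPKM against 0.990 to 1.95 (median 1.20), again with no overlap. Over all genes, 6.65% lay above in this way and 8.65% below. BMP4 differed between the 2 asynchronous libraries, at 0.946 and 4.07 RPKM, and was at 0.709 to 1.59 in the windows. Libraries with the same replicate number deviated together in this table (processing notes), and with the number as a block 4 of 8 members passed where 34.4% of all genes did. GDF6 fell by 0.86 ± 0.15 (SE) on the log2 scale (adjusted p = 0.0029 by limma with the block, 0.22 without), and ID2 rose by 0.74 ± 0.19 (0.015 with, 0.082 without). NOG rose by 0.48 ± 0.12 (0.017 with, 0.23 without). BMP4 fell by 0.86 ± 0.27 (0.038 with, 0.31 without), a value that rests on replicate 2 of asynchronous cells, since the difference was 0.07 when that library was left out.

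ID1 had its highest whole-cell values in the first window. In whole-cell nascent RNA its 2 libraries were at 137 and 132 RPKM at T0-2, 71.0 and 58.9 at T2-4, 78.0 and 68.5 at T4-6, 55.9 and 57.6 at T6-8, and 54.5 and 58.6 at T8-10. In whole-cell input RNA they were at 161 and 209, 100 and 195, 59.1 and 109, 55.9 and 77.7, and 51.1 and 61.5 RPKM in the same order, beside 73.5 and 67.2 in asynchronous cells. The T8-10 minus T0-2 difference was −1.25 ± 0.30 (log2, SE) in whole-cell nascent and −1.71 ± 0.48 in whole-cell input RNA. It was −0.77 ± 0.61 in nuclear nascent and −0.75 ± 0.33 in nuclear input RNA. Within replicate numbers 1 and 2 it was −1.33 and −1.17 in whole-cell nascent and −1.65 and −1.76 in whole-cell input RNA. None of the 4 passed over all genes in limma (adjusted p = 0.31, 0.88, 0.48 and 0.41).

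For this late minus early contrast, 0 of the 8, 8, 7 and 8 members tested in the whole-cell nascent, whole-cell input, nuclear nascent and nuclear input tables passed limma, and limma voom also called 0. At an unadjusted p under 0.05 there was 1 member in each table, ID1 in 3 of them and BMP4 in nuclear nascent RNA (0.99 ± 0.40, adjusted p = 0.20). All genes gave 0%, 0%, 0.358% and 0.415%, so the whole-cell tables called no gene at all (767 nascent and 380 input genes at an unadjusted p under 0.05). The nuclear tables had 2070 nascent and 1178 input genes at that unadjusted p. In whole-cell nascent T0-2, HBB was at 1.6 RPKM in replicate 1 and 72.4 in replicate 2, and ID1 at 137 and 132. Any relation between HBB and ID1 was not tested.

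The profile of ID1 over the 48 libraries of the 4 fraction tables was most like those of SEMA7A (a membrane-anchored semaphorin, Pearson r = 0.82), JUN (a subunit of the AP-1 factor, 0.80), SLC16A3 (a lactate exporter, 0.78), MAFF (a small MAF factor, 0.77) and DDX41 (a DEAD-box helicase, 0.77), of 8490 other genes. Among the members, ID3 came at rank 120 (0.58), SMAD7 at 216 (0.53), SMAD6 at 657 (0.39), ID2 at 1521 (0.26), GDF6 at 3696 (0.02) and BMP4 at 5675 (−0.16). NOG was most like FICD (0.78), TNFRSF10B (0.76), GBX2 (0.75), RPL13AP20 (0.72) and the member ID2 (0.71) over the 36 libraries of 3 tables, of 8660 other genes. ID3 came at rank 149 (0.52), ID1 at 207 (0.49), SMAD7 at 1034 (0.30), SMAD6 at 2496 (0.13), GDF6 at 4809 (−0.05) and BMP4 at 7416 (−0.28). These coefficients were taken on log2 values centred in each table, and the points share libraries, depth and the contrast with asynchronous cells. For NOG they include the whole-cell nascent values used to choose the list, so nothing is read from its ranks.

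SMAD6 differed between replicate numbers in whole-cell input RNA more than between groups. The 5 window libraries of replicate 1 were at 0.258 to 0.339 RPKM and those of replicate 2 at 1.05 to 2.01, with asynchronous cells at 0.693 and 0.670. The windows minus asynchronous difference was accordingly −0.77 within number 1 and 0.78 within number 2. What separates these libraries is not given in the labels.

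In control cells of the knockdown experiment, SMAD6 was lower at the late points. It was at 1.91 and 0.943 RPKM at S0, 1.30 and 0.890 at S2, 0.720 and 0.467 at S4, and 0.442 and 0.495 at S6. The S6 minus S0 difference was −1.16 ± 0.31 (log2, SE; adjusted p = 0.18 by limma). With only the control libraries and replicate number as a block the adjusted p was 0.030, and with only S0 and S6 controls it was 0.040. Those settings also called more of all genes, 276 of 8685 and 260 of 8347. Of the 8 members tested 0 passed (1 at an unadjusted p under 0.05, 0 by limma voom), where 0.0741% of all genes did. Over all genes, 857 of 9442 reached that unadjusted p in limma. GDF6 went from 6.42 and 10.2 RPKM at S0 to 16.8 and 8.96 at S6, a difference of 0.58 ± 0.42.

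Knockdown of LUCAT1 in synchronised cells was accompanied by lower GDF6, ID1 and ID3. GDF6 ran from 6.42 to 19.7 RPKM (median 12.2) in the 8 control libraries and from 1.71 to 6.82 (median 5.46) in the 8 knockdown libraries, and fell by 1.42 ± 0.27 on the log2 scale (SE), or 2.67-fold (adjusted p = 0.0049, limma). ID1 ran from 65.7 to 165 (median 85.1) in controls and from 25.6 to 81.0 (median 43.2) after knockdown, a difference of −1.12 ± 0.25 (2.18-fold lower, adjusted p = 0.009, limma). ID3 ran from 67.1 to 128 (median 93.5) and from 14.5 to 79.5 (median 47.9), a difference of −1.16 ± 0.28 (2.24-fold lower, adjusted p = 0.012, limma). The ranges of each gene overlap over the 4 points, and at every point both knockdown libraries were below both controls for all 3 genes. The share of all genes separated in this way was not computed, so the separation is given as description only.

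The drop was seen at each point. For GDF6 the differences at S0, S2, S4 and S6 were −1.35, −1.66, −1.24 and −1.42, for ID1 −1.37, −1.26, −0.53 and −1.32, and for ID3 −1.52, −1.46, −0.29 and −1.38. The knockdown effect among points was tested on 8 members in each of the 3 synchronised tables, and 0 passed in limma (0 at an unadjusted p under 0.05, 0 by limma voom), where 0% of all genes did. At an unadjusted p under 0.05 there were 37, 39 and 110 genes for LINC00704, LUCAT1 and MIAT. The other 5 members tested did not pass. SMAD6 differed by −0.45 ± 0.21 (adjusted p = 0.12, and 0.036 without 1 of the S0 knockdown libraries), NOG by −0.45 ± 0.31, SMAD7 by −0.17 ± 0.16, BMP4 by −0.15 ± 0.25 and ID2 by −0.02 ± 0.19. GREM1 was under the filter, at most 0.305 RPKM.

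In all, 3 of 8 members were called, all lower, where 27.2% of all genes were called and 8.12% were called lower. The members' median difference was −0.45 and that of all genes 0.11. All genes gave 1879 called higher and 801 lower, a split that was 998 to 1417 with median scaling, in which the median of all genes was −0.04. GDF6, ID1 and ID3 were called lower under every alternative scaling, filter and pseudocount run, and with each of the 16 libraries left out.

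**Figure D2:**
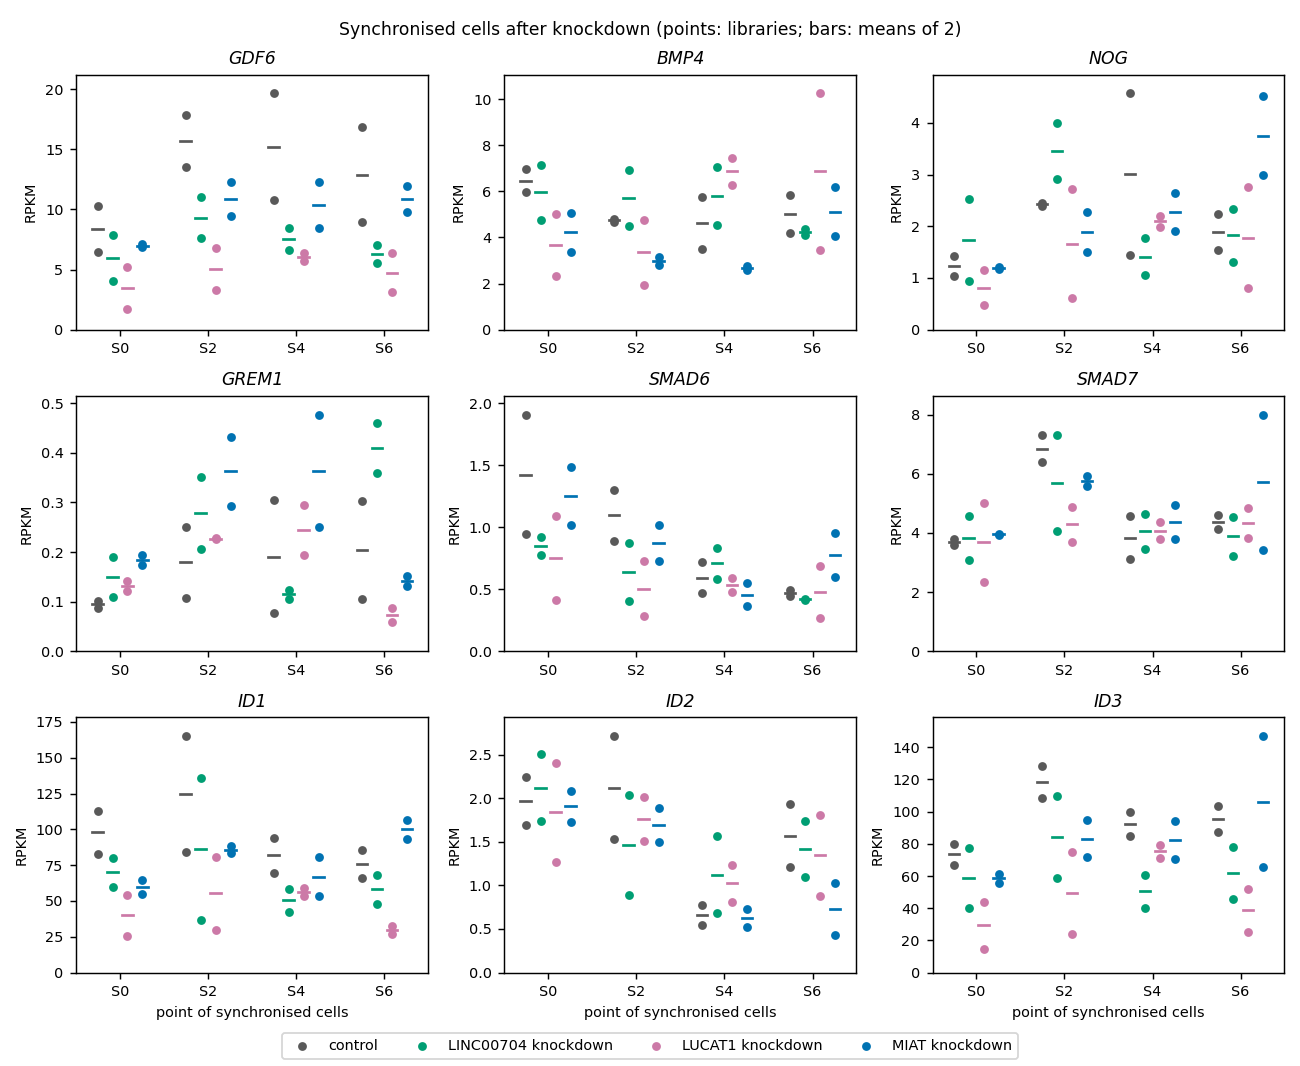
RPKM of each member (vertical axis) at S0, S2, S4 and S6 (horizontal axis) in synchronised cells, with points for single libraries and bars for the means of 2, in control cells and after LINC00704, LUCAT1 or MIAT knockdown. The LUCAT1 points of GDF6, ID1 and ID3 lie below both controls at each point, with GDF6 at 1.71 to 6.82 RPKM against 6.42 to 19.7. How many of all genes do so was not computed.

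The 3 knockdowns of synchronised cells share the same 8 control libraries, so their values are set side by side only. After LINC00704 knockdown GDF6 ran from 4.02 to 11.0 RPKM (median 7.34). Its difference was −0.79 ± 0.21 (unadjusted p = 0.0025, adjusted p = 0.26, limma), with −0.51, −0.75, −0.95 and −0.95 at the 4 points. ID3 differed by −0.63 ± 0.22 (adjusted p = 0.27) and ID1 by −0.58 ± 0.27 (0.31). Of 8 members 0 passed (2 at an unadjusted p under 0.05, 0 by limma voom), where 0.0212% of all genes did. Over all genes, 1559 of 9442 reached that unadjusted p in limma. Without 1 of the S0 knockdown libraries, GDF6 (−0.90 ± 0.21, adjusted p = 0.036) and ID3 (−0.75 ± 0.21, 0.045) passed.

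MIAT knockdown of synchronised cells gave its widest difference in BMP4. BMP4 ran from 3.51 to 6.96 RPKM (median 5.27) in controls and from 2.57 to 6.18 (median 3.27) after knockdown, a difference of −0.48 ± 0.15 (adjusted p = 0.073, limma). It passed without replicate 2 of the S4 controls (−0.57 ± 0.15, adjusted p = 0.036) or without 1 of the S0 knockdown libraries (−0.55 ± 0.16, 0.046). GDF6 differed by −0.35 ± 0.19, ID2 by −0.32 ± 0.17, ID1 by −0.26 ± 0.18 and ID3 by −0.24 ± 0.18, all with an adjusted p of at least 0.25. Of 8 members 0 passed (1 at an unadjusted p under 0.05, 0 by limma voom), where 7.63% of all genes did. Over all genes, 2357 of 9528 reached that unadjusted p in limma. The median over members was −0.25 here and −0.19 for LINC00704, beside −0.034 and 0.054 over all genes.

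In asynchronous cells MIAT knockdown changed 8 of the 9 members, where 43.7% of all genes were called. GDF6 was at 6.74 and 6.08 RPKM in the 2 controls and at 3.51, 2.81 and 3.08 after knockdown, a difference of −0.98 ± 0.12 (1.97-fold lower, adjusted p = 0.0015, limma). BMP4, the other ligand, was at 8.16 and 8.34 RPKM against 5.88, 4.61 and 4.14 (−0.74 ± 0.15, adjusted p = 0.008). Both ligands lay below both controls in all 3 knockdown libraries. The summed level of the pigment epithelium markers was also lower after this knockdown, at 53.1, 60.3 and 52.8 RPKM against 79.8 and 85.2, over the 8 of 10 markers with a row (RPE65 and RLBP1 had none). Most of that sum was KRT18 (42.1 to 70.1 RPKM over the control and knockdown libraries) and KRT8 (6.6 to 11.7). OTX2 ran from 2.05 to 2.51 RPKM, MITF from 0.523 to 0.624, and the remaining markers were under 1 RPKM. The sum therefore says little of markers other than the keratins, and its part in the result was not tested.

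NOG and GREM1, both secreted antagonists, rose in the same libraries. NOG was at 0.528 and 0.377 RPKM in controls and at 0.795, 1.10 and 1.10 after MIAT knockdown, a rise of 0.83 ± 0.15 (1.78-fold, adjusted p = 0.0054, limma). GREM1 was at 0.736 and 0.608 RPKM against 1.07, 1.05 and 0.927, a rise of 0.46 ± 0.10 (adjusted p = 0.011). Without replicate 2 of the controls the GREM1 rise was 0.36 ± 0.13 and missed the threshold (adjusted p = 0.081).

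The inhibitory SMADs and the high ID genes fell with the ligands. SMAD6 was at 1.26 and 1.19 RPKM against 0.648, 0.567 and 0.567 (−0.81 ± 0.09, adjusted p = 0.001, limma), and ID3 at 117 and 115 against 70.8, 66.8 and 65.9 (−0.78 ± 0.10, adjusted p = 0.0019). ID1 was at 76.7 and 66.2 RPKM against 54.1, 46.2 and 44.9 (−0.56 ± 0.13, adjusted p = 0.013). SMAD7 was at 4.97 and 4.63 RPKM against 3.67, 3.73 and 3.48 (−0.38 ± 0.09, adjusted p = 0.015). ID2 was at 0.548 and 0.629 RPKM against 0.695, 0.642 and 0.492 and did not pass (0.03 ± 0.12, adjusted p = 0.85).

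Changes were common in this table, so the members' count is read against that. Of the 9 members 6 were called lower and 2 higher, where 43.7% of all genes were called, 31.1% lower and 12.6% higher. The same 8 members did not overlap between groups (6 below, 2 above), where 44.8% of all genes lay below and 22.9% above. The median difference was −0.56 over members and −0.12 over all genes. The split of all called genes depended on the scaling, at 1155 higher and 2861 lower as deposited, 1358 and 1701 after quantile normalization and 2425 and 1762 with limma voom, where the median of all genes was 0.05. No called member changed sign under any setting. SMAD7 missed the threshold without either control (−0.33 ± 0.13, adjusted p = 0.13, and −0.43 ± 0.13, 0.053), after quantile normalization (−0.15 ± 0.09, 0.23), with limma voom (−0.21 ± 0.10, 0.093) and with the replicate block. ID1 missed it without replicate 1 of the controls (−0.45 ± 0.16, 0.10) and after quantile normalization (−0.28 ± 0.14, 0.15).

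**Figure D3:**
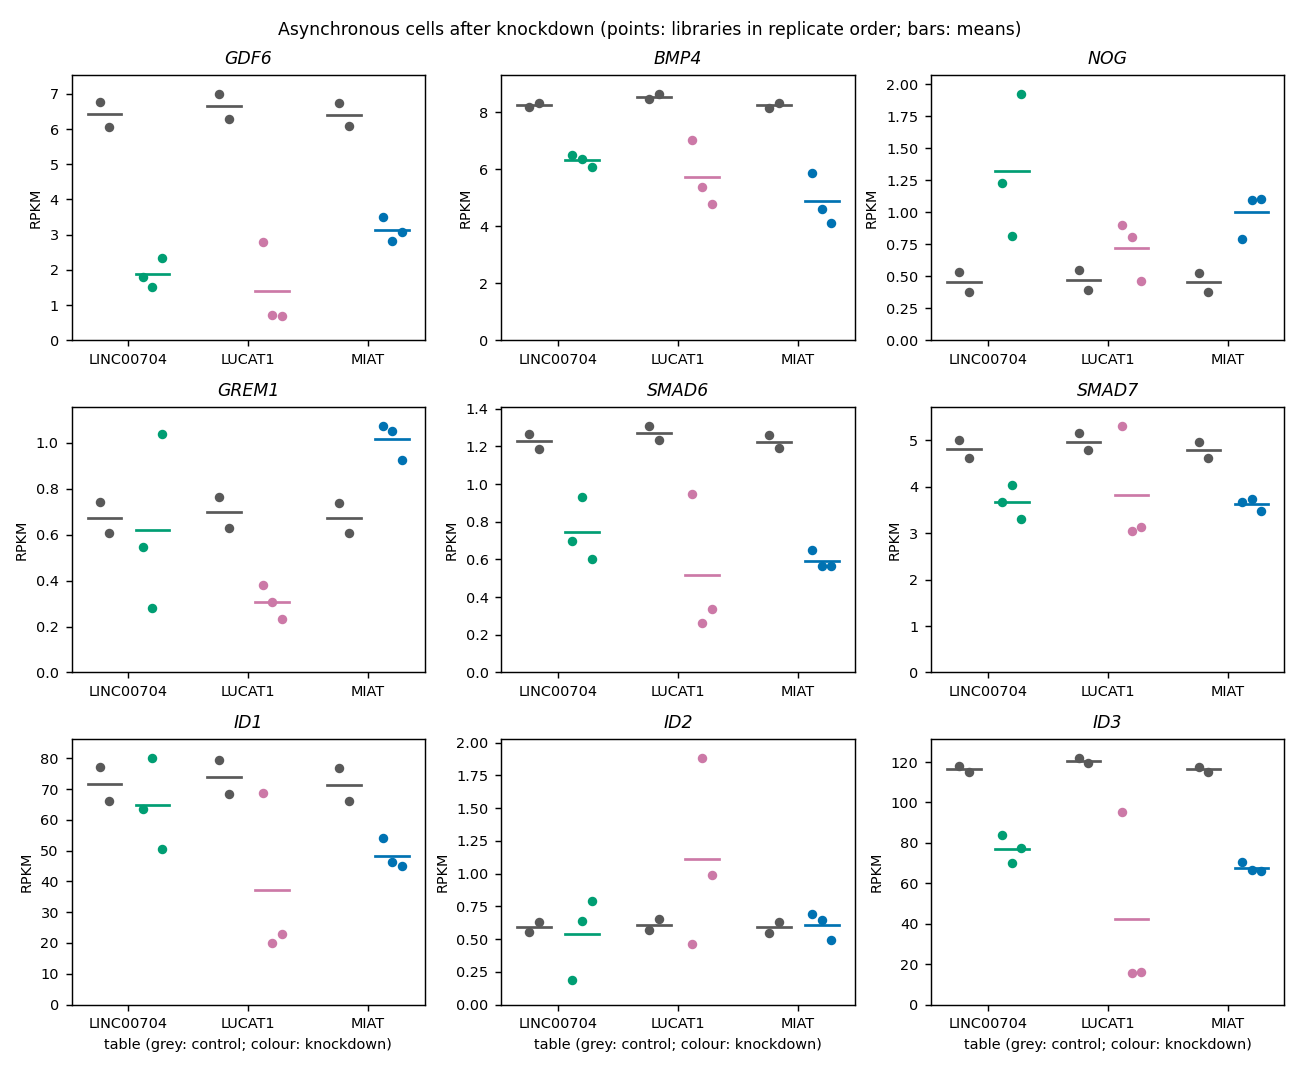
RPKM of each member (vertical axis) in asynchronous cells, with 2 control (grey) and 3 knockdown points and bars for their means in each of the LINC00704, LUCAT1 and MIAT tables (horizontal axis). GDF6 lies below the controls in all 9 knockdown libraries, and NOG at 0.795 to 1.10 RPKM after MIAT knockdown lies above 0.377 and 0.528. The same 2 control libraries serve each table, and how many of all genes lie below them throughout was not computed.

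LUCAT1 knockdown of asynchronous cells gave the lowest GDF6, ID1, ID3 and SMAD6 values of the 3 asynchronous tables, in 2 of its 3 libraries. GDF6 was at 6.99 and 6.29 RPKM in controls and at 2.80, 0.716 and 0.683 after knockdown. ID3 was at 122 and 119 RPKM against 95.1, 15.7 and 16.3. ID1 was at 79.5 and 68.6 RPKM against 68.7, 20 and 23.0, and SMAD6 at 1.31 and 1.23 against 0.950, 0.262 and 0.334. GREM1 was lower in all 3, at 0.764 and 0.630 RPKM against 0.379, 0.305 and 0.234.

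Knockdown replicate 1 stood apart from the other 2 in each of these genes except GREM1, where its gap was small. LUCAT1 itself was at 0.311 RPKM in that library against 0.128 and 0.124 in the others and 0.469 and 0.495 in controls. Some markers of pigment epithelium were low in the same 2 libraries. KRT18 was at 67.3 and 72.6 RPKM in controls and at 46.7, 14.9 and 15.4 after knockdown, and OTX2 at 2.28 and 2.60 against 2.26, 0.390 and 0.293. PMEL went the other way in all 3, at 0.0997 and 0.0791 RPKM against 0.215, 0.235 and 0.260. Summed over the 8 of 10 markers with a row (RPE65 and RLBP1 had none), the level was 82.7 and 88.3 RPKM against 58.8, 19.2 and 19.7. Of the 6 markers of other cell types PECAM1 alone had a row, at 0.0183 to 0.0324 RPKM in controls and 0.0374 to 0.0707 after knockdown. The part of these levels in the result was not tested. With all 5 libraries, 0 of 9 members passed limma (5 at an unadjusted p under 0.05, 0 by limma voom), where 0.209% of all genes did. Over all genes, 2100 of 9550 reached that unadjusted p in limma. The differences were −2.30 ± 0.52 for GDF6 (adjusted p = 0.11), −2.04 ± 0.77 for ID3 (0.20), −1.21 ± 0.52 for ID1 (0.24), −1.10 ± 0.37 for SMAD6 (0.18) and −0.77 ± 0.19 for GREM1 (0.12). BMP4 differed by −0.57 ± 0.21 (0.20). GDF6, BMP4, GREM1, ID3 and SMAD6, 5 of 9 members, were below both controls in all 3 libraries, where 31.5% of all genes were. The members' median was −0.77 and that of all genes −0.1.

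Without knockdown replicate 1, 8 of 9 members passed, where 48.4% of all genes did. GDF6 differed by −2.86 ± 0.13 (adjusted p = 0.00024, limma), ID3 by −2.89 ± 0.12 (0.00024), ID1 by −1.77 ± 0.15 (0.00049) and SMAD6 by −1.47 ± 0.12 (0.00048). GREM1 (−0.86 ± 0.12), BMP4 (−0.72 ± 0.13) and SMAD7 (−0.65 ± 0.13) were also lower, and ID2 was higher (0.92 ± 0.25, adjusted p = 0.026). NOG did not pass (0.28 ± 0.21, 0.31).

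LINC00704 knockdown of asynchronous cells gave lower GDF6 and higher NOG values that did not pass over all genes. GDF6 was at 6.78 and 6.06 RPKM in controls and at 1.80, 1.51 and 2.33 after knockdown, a difference of −1.66 ± 0.20 (adjusted p = 0.065, limma). It passed with limma voom (−1.61 ± 0.20, 0.025) and without knockdown replicate 3 (−1.81 ± 0.15, 0.023). NOG was at 0.531 and 0.376 RPKM against 1.23, 0.812 and 1.92 (1.10 ± 0.29, adjusted p = 0.21), and ID3 at 118 and 115 against 83.8, 69.9 and 77.4 (−0.60 ± 0.15, 0.20). SMAD6 differed by −0.58 ± 0.18, BMP4 by −0.37 ± 0.15, SMAD7 by −0.37 ± 0.16 and ID1 by −0.17 ± 0.22. Of 9 members 0 passed (5 at an unadjusted p under 0.05, 1 by limma voom), where 0.0557% of all genes did. Over all genes, 1115 of 8975 reached that unadjusted p in limma. GDF6, BMP4, ID3, SMAD6 and SMAD7 lay below both controls in all 3 libraries and NOG above, where 25.2% of all genes lay below and 7.32% above. The members' median was −0.37 and that of all genes −0.074.

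The 3 asynchronous knockdowns share 2 control libraries, so their values stand side by side and no overlap between them is drawn. GDF6 was below both shared controls in each of the 3 tables. Of all genes, 25.2% lay below in this way for LINC00704, 31.5% for LUCAT1 and 44.8% for MIAT. The share of all genes below in all 3 was not computed, so this repeat is given as description only. GREM1 was below the controls for LUCAT1 and above them for MIAT, a difference between knockdowns that was not tested. The authors' deposited table gave GDF6 log2 fold changes of −1.72 (FDR 1.3e-06), −2.17 (FDR 2.5e-22) and −1.01 (FDR 3.2e-16) for LINC00704, LUCAT1 and MIAT. For ID3, the authors' deposited table gave −0.60 (FDR 0.18), −1.51 (FDR 6.5e-19) and −0.78 (FDR 3.6e-09) in the same order. For NOG, the authors' deposited table gave 1.36 (FDR 0.00097), 0.53 (FDR 0.44) and 0.99 (FDR 1.5e-06). For LUCAT1, where no member passed limma with all libraries, the authors' deposited table gave an FDR under 0.05 for each member except NOG. It gave −0.99 (FDR 2.4e-08) for ID1, −1.15 (FDR 6.7e-11) for SMAD6 and −0.97 (FDR 3.4e-05) for GREM1. It gave 0.77 (FDR 0.00039) for ID2, −0.57 (FDR 0.025) for BMP4 and −0.37 (FDR 0.041) for SMAD7. The share of all genes under that FDR was not computed.

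**Figure D4:**
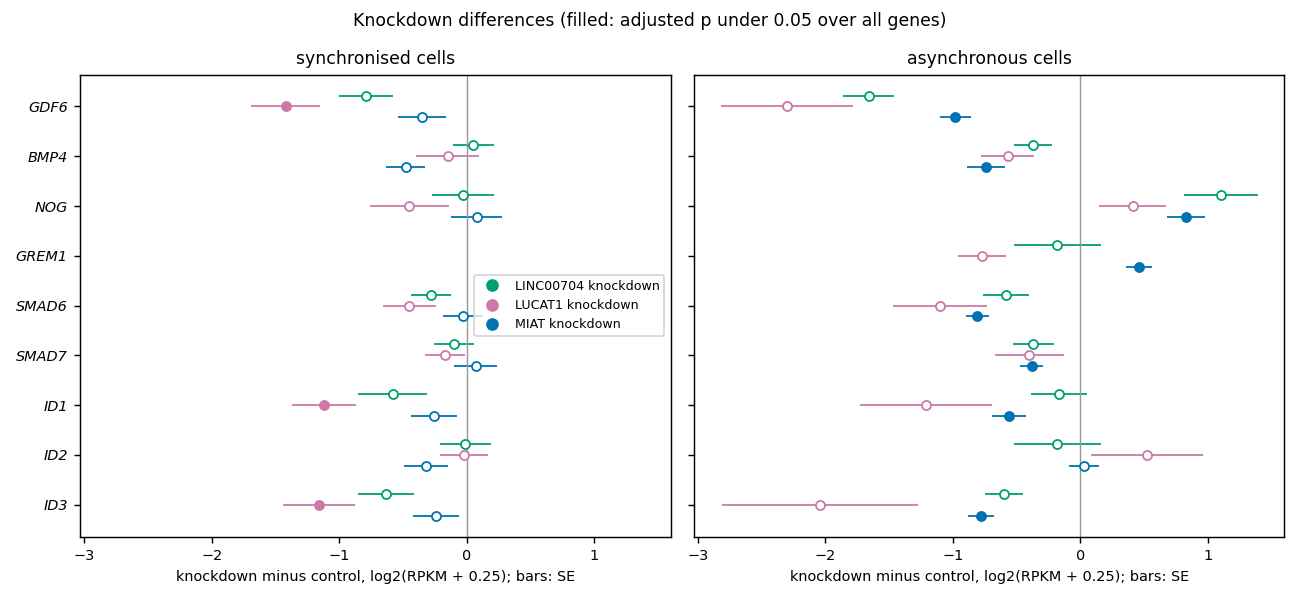
Knockdown minus control on the log2(RPKM + 0.25) scale (horizontal axis) for each member (vertical axis) in synchronised (left) and asynchronous cells (right), with points for the 3 knockdowns and bars for the SE. Filled points passed an adjusted p of 0.05 over all genes: GDF6, ID1 and ID3 for LUCAT1 on the left, and 8 of 9 members for MIAT on the right.

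Of the other 54 genes of the pathway list, 19 to 24 were tested in a table. After LUCAT1 knockdown of synchronised cells, 6 of 22 fell and 4 rose, where 27.2% of all genes were called and 8.12% were called lower. Those that fell were the follistatin family genes FST (21.3 RPKM after knockdown against 45.4 in controls, −1.09 ± 0.17, adjusted p = 0.0018), FSTL3 (24.4 against 48.8, −0.96 ± 0.20) and FSTL1 (14 against 25.8, −0.89 ± 0.15), the ligand binders TWSG1 (−0.49 ± 0.11) and CRIM1 (−0.37 ± 0.11), and the target ATOH8 (1.03 against 2.18, −1.05 ± 0.29). The receptor ACVR2B (0.40 ± 0.09), the shared SMAD4 (0.45 ± 0.14), the ubiquitin ligase SMURF1 (0.42 ± 0.15) and the homeobox gene MSX1 (0.61 ± 0.17) rose.

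After MIAT knockdown of asynchronous cells, 5 of 20 fell and 2 rose, where 43.7% of all genes were called, 31.1% lower and 12.6% higher. Of the 6 antagonists tested beside NOG and GREM1, 3 fell (FSTL3, FST and FSTL1) and 0 rose. FSTL3 (15.7 against 28.6 RPKM, −0.85 ± 0.11), ATOH8 (2.21 against 3.91, −0.76 ± 0.11), FST (−0.56 ± 0.10), FSTL1 (−0.54 ± 0.09) and BAMBI, a decoy receptor that lacks a kinase (5.63 against 8.15, −0.53 ± 0.17), fell. The co-receptor RGMB (5.23 against 3.9, 0.40 ± 0.11) and the ligand BMP8A (0.61 against 0.0343, 1.59 ± 0.10) rose. In synchronised cells 2 of 22 rose after MIAT knockdown, where 7.63% of all genes were called: BMP2 (1.25 against 0.652, 0.72 ± 0.15) and BMP8A (0.339 against 0.0169, 1.06 ± 0.19). BMP8A has a near-identical copy, BMP8B, so its values are uncertain. In nuclear nascent RNA, BMPER, which binds BMP ligands, rose in the windows (0.494 against 0.224 RPKM, 0.64 ± 0.15, adjusted p = 0.045), as 1 of 24, where 4.5% of all genes were called. These are all the calls of the pathway list outside the 9 members.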

How the data were processed

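RNA of hTERT-RPE1 cells was measured in 91 of 96 samples; 5 chromatin samples were not analysed here. The authors deposited RPKM values per gene and library in 10 tables, scaled separately, so tests stayed within a table. Per the file headers, the 3 asynchronous tables also hold comparisons that the authors deposited as p-value, FDR and log2 fold change, by a test not named there. STAR 2.5.3, featureCounts 1.6.1, edgeR, HOMER 4.10.3 and Bowtie2 2.3.4.3 on hg38 are named in the submitters' processing notes, without role. The sources used here do not say whether counting used strand, so overlapping genes may share reads. The labels of the knockdown libraries carry the words nascent RNA, while the design text calls them strand-specific RNA-seq.

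RPKM times the deposited gene length gave whole reads for 100.0% of the values checked (up to 200 reads, tolerance 0.05), from which depth was recovered. Lengths were those of the gene body (median 1.0004 times the RefSeq span), introns included. The members, the pathway and marker lists and the tests were chosen with earlier results of these data known. The named genes are the 9 members, called genes of the pathway list, the knockdown targets and the 5 genes most like NOG and ID1.

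A gene entered a table's fit where 2 or more libraries reached 0.5 RPKM. Values were taken as log2(RPKM + 0.25) and differences tested with limma 3.58.1 (R 4.3.3), its variance prior following mean expression. Benjamini-Hochberg adjustment covered all tested genes, and calls needed an adjusted p under 0.05. All log2 differences are on that scale, which understates changes of weak genes. Fits were tested on simulated data. Figures used Python 3.11.15 and matplotlib 3.10.9. Alternatives were other pseudocounts, filters and scalings, limma voom on recovered reads, a replicate block, the compared groups alone, and each library left out.

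In nuclear input RNA, same-numbered libraries deviated together in all 15 pairs of groups (r from 0.627 to 0.861), and the blocked value is given there. The numbers come from the sample titles, which name no shared culture or day. For synchronised knockdown libraries, the replicate numbers in the column names differ from those in the sample titles, so which library is which titled replicate is unknown.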

Additional observations from a re-analysis of the deposited data

How the results depend on the processing

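Of the 12 pairs of member and comparison that were called, none changed sign in 193 alternative values, and 13 values lost the call. NOG in whole-cell nascent RNA (1 member called) was lost with a pseudocount of 1 and with limma voom (0 called each), and leaving out 1 library gave 0 to 1, with 0 without either asynchronous library or without replicate 2 of T8-10. Of the 109 pairs not called, 20 were called in some setting and 32 took the other sign in some setting. With a replicate block, calls went from 1 to 2 in whole-cell nascent windows (ID2 added, 1.65 ± 0.29, adjusted p = 0.028), from 0 to 4 in nuclear input windows, from 0 to 1 for S6 against S0 in the control libraries alone (also 1 with only the groups compared), and from 0 to 2 in asynchronous LINC00704 (GDF6 −1.81 ± 0.12, 0.012, and NOG 0.84 ± 0.12, 0.041) and LUCAT1 knockdowns (GDF6, adjusted p = 4e-05, and ID3, −1.63 ± 0.37, 0.0036). Calls over all genes rose too with the block, to 278 of 10096 in whole-cell nascent windows and 3314 of 9633 in nuclear input windows. For S6 against S0 they were 276 of 8685, and 260 of 8347 with only the groups compared. In asynchronous cells they were 153 of 8975 for LINC00704 and 482 of 9550 for LUCAT1. The block changed no other call of a member except SMAD7 in asynchronous MIAT knockdown, which went to an adjusted p of 0.050. Outside nuclear input RNA the numbers were not taken to pair the libraries. The correlation between groups had a lowest value under 0.1 in nuclear nascent RNA (−0.308 to 0.402), nascent RNA of whole cells (−0.269 to 0.594), their input RNA (−0.562 to 0.939, median 0.904) and synchronised controls (0.0716 to 0.784), and the asynchronous tables have only 1 pair of groups each (0.333, 0.345 and 0.146). For the synchronised knockdown comparisons, no paired analysis was possible because the replicate numbers of the knockdown columns differ from those of the sample titles. limma voom called 1 member in asynchronous LINC00704 knockdown instead of 0. Leaving out 1 library gave 0 to 2 calls for LINC00704 and 0 to 1 for MIAT in synchronised cells, and 0 to 1 for LINC00704 and 0 to 8 for LUCAT1 in asynchronous cells; a group left with 1 library is assumed to vary like the others. Depth limits NOG, at 0 reads in both asynchronous whole-cell nascent libraries and 4 to 20 in nuclear input libraries.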
